A study of Mus musculus with 16 samples.

Results

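The genes described here handle the entry of glucose into β-cells, its phosphorylation, and the transcriptional response to glucose-derived sugar phosphates. They are 9 genes taken by name from the count table: the glucose transporter genes Slc2a1, Slc2a2 and Slc2a3, the hexokinase genes Hk1 and Hk2, the glucose-6-phosphatase gene G6pc2, the transcription factor gene Mlxipl, and the arrestin-family genes Txnip and Arrdc4. The table listed 23329 genes, of which 10820 had enough counts to be tested. Among the 9 genes, 7 were tested, while Slc2a3 and Hk2 had too few counts and are described by their counts.

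The RNA came from BetaTC6, a mouse insulinoma β-cell line of the C57BL/6 background, one of the lines derived from mice in which the insulin promoter drives a viral tumour antigen. Wild-type cells and cells labelled P2ry1 knockout, called here the wild-type and the knockout line, were grown for 3 days, starved of glucose in buffer, and then stimulated for 30 min with 20 mM glucose together with ivermectin, an antiparasitic drug, or with its vehicle, DMSO. This gave 4 groups of 4 libraries, with vehicle or ivermectin in either line. P2ry1 encodes a purinergic receptor for ADP, and the groups allow the effect of ivermectin on transcripts of glucose-stimulated β-cells to be compared between the lines. All 4 groups had received the same 20 mM glucose, so no comparison here shows a response to glucose. Whether the knockout line is 1 clone or several, and the ivermectin dose, are not given in the sources used here. Nothing in the labels says that the 4 libraries of a group came from separate cultures, so p-values measure the spread between these libraries, which may be technical.

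In β-cells, glucose enters through facilitative transporters. Slc2a2 encodes GLUT2, the low-affinity transporter typical of rodent β-cells and of hepatocytes, whereas Slc2a1 and Slc2a3 encode the higher-affinity GLUT1 and GLUT3. Hexokinases, among them those encoded by Hk1 and Hk2, then phosphorylate glucose to glucose-6-phosphate, and G6pc2, an islet-specific phosphatase of the endoplasmic reticulum, removes the phosphate again. Glucose metabolites activate ChREBP, the factor encoded by Mlxipl, which pairs with Mlx and binds carbohydrate response elements, pairs of E-box-like sequences separated by a short spacer. Txnip, which encodes the thioredoxin-interacting protein, and its relative Arrdc4 are among the best known ChREBP targets, and both proteins lower glucose uptake at the plasma membrane.

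The promoter stretches below are shown because the genes downstream of them form the ChREBP arm: they carry the matches found to a carbohydrate response element or to an E-box. Each is the run of 250 bases before an annotated transcription start, taken from RefSeq on build GRCm38.p6 and written 5′ to 3′ along the gene's strand, with the matched motif in capitals. The searches covered both strands for the E-box CACGTG and for the paired form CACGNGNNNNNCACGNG, in which N is any base. Of the 9 genes, 8 were in the promoter table.
Txnip, chr3:96557707-96557956, plus strand: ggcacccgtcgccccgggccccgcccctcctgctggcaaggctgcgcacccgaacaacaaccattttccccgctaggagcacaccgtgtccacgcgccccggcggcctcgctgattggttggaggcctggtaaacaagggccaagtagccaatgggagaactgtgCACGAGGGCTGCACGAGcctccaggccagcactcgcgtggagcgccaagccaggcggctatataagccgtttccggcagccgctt
Mlxipl, chr5:135089640-135089889, plus strand: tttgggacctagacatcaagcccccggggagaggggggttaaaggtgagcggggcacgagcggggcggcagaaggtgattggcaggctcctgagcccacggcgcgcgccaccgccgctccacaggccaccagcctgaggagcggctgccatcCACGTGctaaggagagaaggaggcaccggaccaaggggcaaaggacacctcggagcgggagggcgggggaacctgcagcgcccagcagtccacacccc
Arrdc4, chr7:68749239-68749488, minus strand: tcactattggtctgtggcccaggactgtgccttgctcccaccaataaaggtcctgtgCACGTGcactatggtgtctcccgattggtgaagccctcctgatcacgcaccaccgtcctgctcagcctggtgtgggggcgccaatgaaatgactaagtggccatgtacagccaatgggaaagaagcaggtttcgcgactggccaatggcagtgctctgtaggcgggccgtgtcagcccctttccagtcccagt

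In the Txnip promoter the paired motif, read as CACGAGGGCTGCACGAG, lay 85 to 69 bases before the start (chr3:96557872-96557888). Only 15 of 32851 promoter windows of this length held the paired motif (0.0457%). The E-box was far more frequent, in 1978 windows (6.02%), and it lay 98 to 93 bases before the upstream start of Mlxipl and 193 to 188 bases before the start of Arrdc4. None of the windows of the other matched genes held either motif as spelled here. These matches describe letters in a window and were not tested as binding sites.

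The libraries held 893088 to 2013242 counts (2.25-fold apart), and the 4 lowest totals were those of the wild-type vehicle group. A count of 0 therefore allowed a level of at most 1.49 to 3.36 CPM, taking 3 counts as the limit; CPM are counts per library total, on a common scale, and such limits cover counting error only. P2ry1, on chromosome 3 at 61002785 to 61008982, had a level of 94.6 ± 8.57 CPM with vehicle in the wild-type line and 84.0 ± 8.98 CPM in those labelled knockout vehicle (SD, n = 4 each), and at 93.1 ± 7.58 and 85.5 ± 4.95 CPM in the ivermectin groups. It was not called in either comparison (edgeR adjusted p = 0.245 and 0.394), and a count per gene does not reveal an edit that leaves the transcript in place, so the genotype is used as the labels give it. All 14 β-cell markers examined had counts in every group, and their summed level lay between 34140 and 45673 CPM in the 16 libraries. Of 13 tested, 1 was higher and 3 were lower in the knockout than in the wild-type line in vehicle, where 9.86% of all genes were called higher and 10.8% lower, and 1 was higher and 5 were lower in ivermectin, where 13.9% were called in each direction. Markers of other islet cells summed to 472 to 553 CPM in wild-type libraries and 220 to 269 CPM in libraries labelled knockout. All 21 hepatocyte markers also had counts in every group. Their sum was 776 to 2189 CPM with vehicle and 200 to 451 CPM with ivermectin in the wild-type line, and 60.2 to 149 CPM and 93.8 to 330 CPM in the knockout line. Of 20 hepatocyte markers tested, 20 were lower in the knockout than in the wild-type line in vehicle and 1 in ivermectin, against those same backgrounds of 10.8% and 13.9%. With ivermectin in the wild-type line 19 were lower, against 0.545% of all genes. The marker lists were chosen with earlier results of these data known, so these counts describe the libraries and are not an independent test. In bulk RNA, fewer cells of a type and less RNA per cell cannot be told apart. Because several genes described here are also liver genes, the level of the albumin gene Alb and a fit with Alb as a covariate are given further below for the results whose calls that fit changed.

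Across the 16 libraries the 9 genes spanned several orders of magnitude per transcript length. G6pc2 stood at 1106 ± 68.1 TPM (a level per transcript length, scaled to a common total; SD, n = 16 libraries), above 99.3% of the genes with a count. Mlxipl followed at 68.9 ± 11.4 TPM, Txnip at 39.6 ± 12.2, Hk1 at 30.5 ± 2.84 and Slc2a2 at 25.3 ± 3.8 TPM. Slc2a1 stood at 13.2 ± 2.52 TPM, Arrdc4 at 8.09 ± 2.42, Slc2a3 at 1.26 ± 0.898 and Hk2 at 0.262 ± 0.248 TPM. Several neighbours in this order were separated in all 16 libraries: G6pc2 above Mlxipl, Mlxipl above Txnip, Slc2a2 above Slc2a1, and Arrdc4 above Slc2a3. Txnip was above Hk1 in 13 of 16 libraries, Hk1 above Slc2a2 in 14, and Slc2a1 above Arrdc4, like Slc2a3 above Hk2, in 15. The level of Arrdc4 per length is less certain, because RSEM divided its reads between 2 transcripts and the length it used ranged from 1483 to 3903 bases between libraries.

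**Figure D1:**
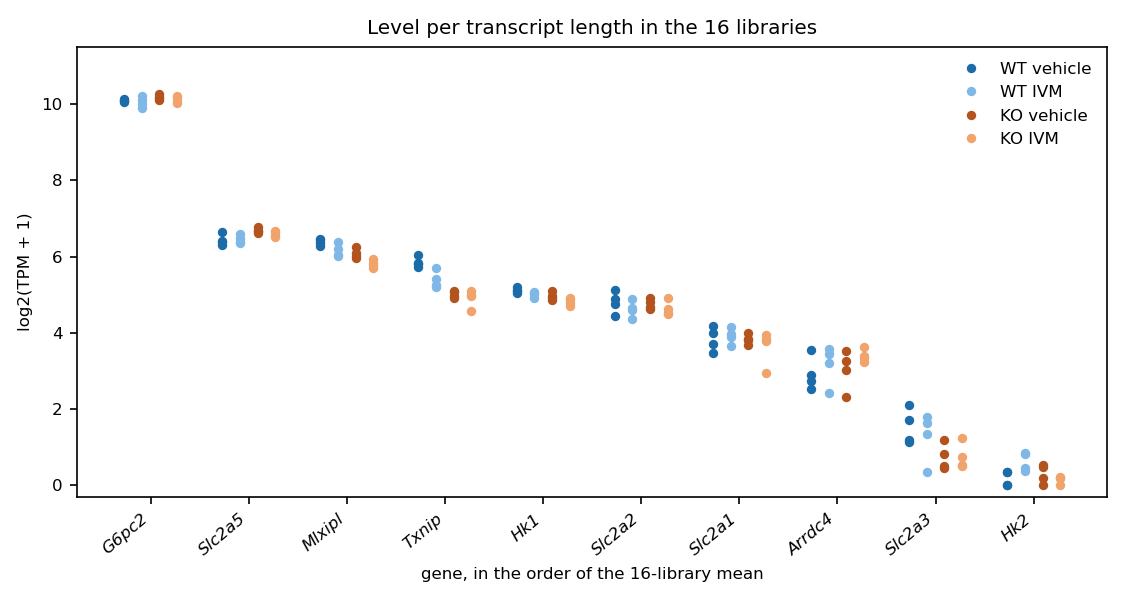
Level per transcript length of the 9 genes and of Slc2a5 in each of the 16 libraries, as log2(TPM + 1), in the order of the mean; each point is 1 library, coloured by group (WT, wild type; KO, labelled knockout; IVM, ivermectin). G6pc2 sits above all others, and Slc2a3 (0.28 to 3.34 TPM) and Hk2 (0 to 0.8 TPM) have the lowest means.

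Among the glucose transporter genes, Slc2a2 was the most abundant of the 3 in every group and none of them was called in any comparison. Slc2a2 (chromosome 3, 28697903 to 28728361) was at 42.7, 44.0, 33.1 and 52.0 CPM in the wild-type vehicle libraries and at 44.0, 38.9, 31.8 and 39.8 CPM in the wild-type ivermectin libraries. The knockout vehicle libraries had 46.5, 45.6, 39.9 and 42.4 CPM, and it was at 38.1, 49.1, 39.9 and 43.3 CPM in knockout ivermectin libraries. The 4 groups overlapped throughout. In vehicle the log2 difference between the knockout and the wild-type line was 0.01 ± 0.140 (SE), with a 95% interval from -0.28 to 0.29. In ivermectin it was 0.13 ± 0.130, and ivermectin changed the estimate by -0.15 ± 0.146 in the wild-type and by -0.03 ± 0.124 in the knockout line (edgeR adjusted p from 0.49 to 1 over these comparisons). After thinning to equal totals the estimates were 0.55 between the lines in ivermectin (edgeR adjusted p = 0.0993) and -0.53 for ivermectin in the wild-type line (edgeR adjusted p = 0.996), over 3 times those with all counts and still without a call. Thinning was a single random draw that discards counts, so its estimates here and below also carry sampling noise. Slc2a2 is also a hepatocyte gene. Alb, given for comparison, averaged 579 CPM in wild-type vehicle and 38.9 CPM in knockout vehicle libraries.

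Slc2a1 (chromosome 4, 119108745 to 119137330), the GLUT1 gene, was at 24.7, 18.6, 27.8 and 15.8 CPM in wild-type vehicle and at 25.5, 22.5, 23.9 and 19.9 CPM in wild-type ivermectin libraries. Its values were 23.2, 18.6, 22.0 and 26.0 CPM in knockout vehicle and 22.0, 24.0, 12.4 and 24.6 CPM in knockout ivermectin libraries. Knockout ivermectin replicate 3, at 12.4 CPM, was the lowest of the 16. The log2 difference between the lines was 0.06 ± 0.205 in vehicle (95% interval -0.36 to 0.48) and -0.15 ± 0.184 in ivermectin (95% interval -0.52 to 0.23), and neither was called (edgeR adjusted p = 0.875 and 0.589). The sign of the Slc2a1 difference in vehicle turned negative without wild-type vehicle replicate 4 (-0.07), so no direction is read from it.

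Slc2a3 (chromosome 6, 122727809 to 122802363), the GLUT3 gene, was near the limit of detection. Its counts were 3, 3, 8 and 6 in wild-type vehicle, 12, 10, 6 and 1 in wild-type ivermectin, 6, 2, 4 and 2 in knockout vehicle, and 7, 2, 2 and 3 in knockout ivermectin libraries. Over all libraries of a group this was 5.12 CPM in wild-type vehicle (exact Poisson 95% interval 3.13 to 7.91) against 1.83 CPM in knockout vehicle (upper bound 3.07), intervals that cover counting error only. With the low-count filter removed, the log2 difference between the lines was -1.40 ± 0.530 in vehicle and -1.01 ± 0.491 in ivermectin, and neither passed the threshold among 17703 genes (edgeR adjusted p = 0.0546 and 0.157). The group ranges overlapped in both treatments.

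Taking the 3 transporters together, Slc2a2 made up 63.2% ± 9.99 of their summed TPM in the wild-type line with vehicle and 60.2% ± 4.68 with ivermectin (SD, n = 4 each). In the knockout line it made up 64.9% ± 3.88 and 66.3% ± 6.26. The corresponding shares of Slc2a1 were 32.1%, 35.9%, 33.3% and 31.6%. The mixture was thus GLUT2 transcript first and GLUT1 transcript second in every group. The Slc2a3 share was 4.74% ± 2.44 and 3.90% ± 2.12 in the wild-type groups and 1.75% ± 0.999 and 2.02% ± 1.22 in the knockout groups, in the same order of treatments, and differences between the groups in these shares were not tested.

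The hexokinase genes differed widely from one another in level, and neither was called in any comparison. Hk1 (chromosome 10, 62268855 to 62379920), which encodes the high-affinity hexokinase 1, was at 87.7, 87.1, 96.2 and 85.5 CPM in wild-type vehicle and at 82.0, 87.7, 79.5 and 88.8 CPM in wild-type ivermectin libraries. The knockout vehicle libraries had 87.1, 86.3, 79.3 and 84.8 CPM, and it was at 81.5, 81.7, 76.4 and 82.2 CPM in knockout ivermectin libraries. The groups lay close together and overlapped in each of the 4 comparisons. The knockout line differed from wild type by -0.08 ± 0.0910 on the log2 scale in vehicle (95% interval -0.26 to 0.11) and by -0.07 ± 0.0849 in ivermectin (95% interval -0.24 to 0.10), without a call (edgeR adjusted p = 0.615 and 0.606). These intervals are narrower than those of either transporter tested. After thinning the Hk1 estimate in ivermectin was -0.22 (edgeR adjusted p = 0.302), about 3 times that with all counts, and without wild-type vehicle replicate 3 that in vehicle was -0.04.

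Hk2 (chromosome 6, 82725025 to 82774454), the insulin-responsive hexokinase of muscle and of many tumours, had at most 5 counts in any library and none in 4 of 16. Its counts were 0, 1, 0 and 1 in wild-type vehicle, 2, 5, 2 and 4 in wild-type ivermectin, 3, 1, 3 and 0 in knockout vehicle, and 1, 1, 1 and 0 in knockout ivermectin libraries. The wild-type ivermectin libraries summed to 13 counts, or 1.95 CPM of their joint total (exact Poisson 95% interval 1.04 to 3.34), against 2 counts, or 0.512 CPM (0.0621 to 1.85), in wild-type vehicle. These intervals overlap, and without the filter the log2 difference of 1.81 ± 0.985 was not called (edgeR adjusted p = 0.894). The wild-type ivermectin libraries ranged from 0.9995 to 3.06 CPM, above those of wild-type vehicle (0 to 0.978 CPM) and of knockout ivermectin (0 to 0.653 CPM), but the nearest libraries differed by 2 counts against 1, under the limit of 3 counts, so this separation is not read as a difference. Between the lines in ivermectin the log2 difference was -1.95 ± 0.858 without the filter, with an unadjusted p of 0.0233, and was not called (edgeR adjusted p = 0.105). In vehicle it was 0.79 ± 1.1 (edgeR adjusted p = 0.712), and for ivermectin in the knockout line -0.93 ± 0.958 (edgeR adjusted p = 0.823).

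Within the summed TPM of Hk1, Hk2, Hk3 and Hkdc1, Hk1 held 99.3% ± 1.02 in the wild-type line with vehicle and 97.5% ± 0.837 with ivermectin (SD, n = 4 each). In the knockout line its share was 98.6% ± 0.594 with vehicle and 98.9% ± 0.371 with ivermectin, and nearly all transcript of these 4 genes was thus Hk1 in each group.

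**Figure D2:**
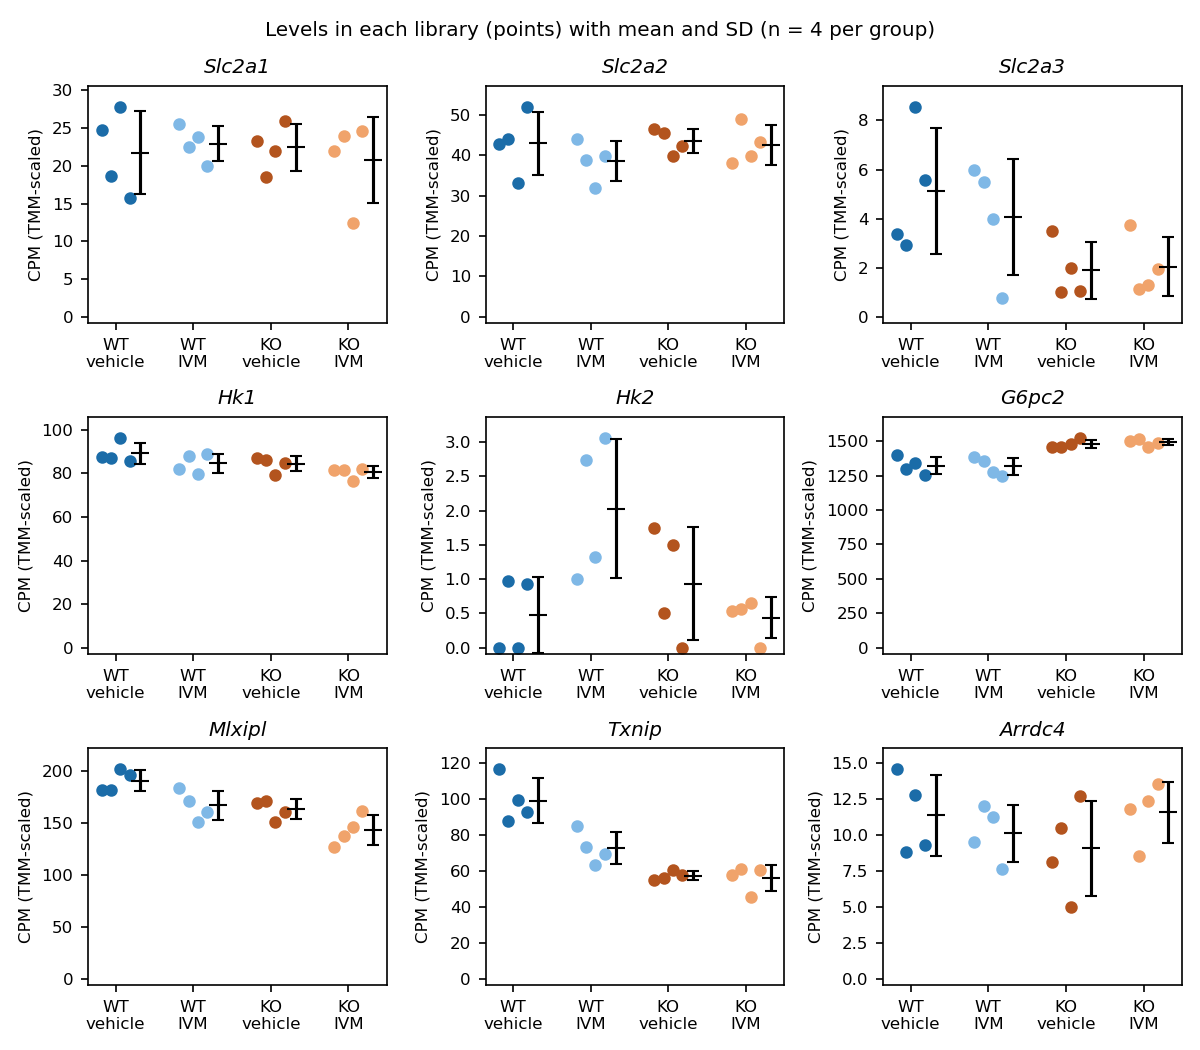
CPM of each of the 9 genes in every library (points, 4 per group, in replicate order), with the group mean and SD (black; n = 4); WT, wild type; KO, labelled knockout; IVM, ivermectin; each panel has its own linear axis. Txnip falls from 88.0 to 117 CPM in wild-type vehicle to 55.2 to 60.9 CPM in knockout vehicle, whereas the Slc2a1, Slc2a2 and Hk1 groups overlap.

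G6pc2 was higher in the knockout line under both treatments, by a small margin. G6pc2 (chromosome 2, 69211073 to 69227993) was at 1400, 1299, 1343 and 1251 CPM in wild-type vehicle libraries against 1457, 1456, 1484 and 1524 CPM in knockout vehicle libraries. In ivermectin it was at 1385, 1356, 1279 and 1250 CPM in wild-type and at 1505, 1516, 1462 and 1489 CPM in knockout libraries. Every knockout library lay above every wild-type library of the same treatment. The log2 difference was 0.16 ± 0.0486 in vehicle (edgeR adjusted p = 0.0143), and in ivermectin, where the fold was 1.13, it was 0.18 ± 0.0480 (edgeR adjusted p = 0.00474). Ivermectin itself left the estimate at -0.00 ± 0.0489 in the wild-type line (95% interval -0.10 to 0.09) and at 0.01 ± 0.0478 in the knockout line (95% interval -0.08 to 0.11), without a call (edgeR adjusted p = 1 and 0.972). The call in vehicle was lost without wild-type vehicle replicate 4 (edgeR adjusted p = 0.0648), and both were lost after thinning to equal totals, which gave log2 differences of 0.16 and 0.15 (edgeR adjusted p = 0.0573 and 0.0902). Per transcript length, G6pc2 exceeded Hk1 by a mean factor of 32.6 with vehicle and 34.2 with ivermectin in the wild-type line, and of 38.5 and 40.7 in the knockout line.

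Mlxipl (chromosome 5, 135089890 to 135139768), the ChREBP gene, was lower in the knockout line under both treatments, again by a small margin. It was at 182.1, 181.9, 202 and 196 CPM in wild-type vehicle and at 169.6, 172, 151 and 160.5 CPM in knockout vehicle libraries, with no overlap. In ivermectin it was at 184, 172, 151 and 161 CPM in wild-type and at 127, 138, 146 and 161 CPM in knockout libraries, where the ranges overlapped. The log2 difference was -0.23 ± 0.0819 in vehicle (edgeR adjusted p = 0.0458) and -0.24 ± 0.0797 in ivermectin (edgeR adjusted p = 0.0245). Both calls lay near the threshold: DESeq2 did not make them (adjusted p = 0.111 and 0.0687), that in vehicle was lost without the low-count filter (edgeR adjusted p = 0.103), thinning to equal totals lost both (edgeR adjusted p = 0.138 and 0.188), and leaving out 1 library at a time lost the call in vehicle for 9 of 16 libraries (with an edgeR adjusted p of up to 0.139) and that in ivermectin for 4 of 16 (wild-type ivermectin replicates 1 and 2 and knockout ivermectin replicates 1 and 2, with an edgeR adjusted p of up to 0.133). With ivermectin, Mlxipl had a log2 difference of -0.18 ± 0.0829 in the wild-type and -0.19 ± 0.0786 in the knockout line, each with an unadjusted p below the 0.05 level (0.0324 and 0.0181) but not past the adjusted threshold (edgeR adjusted p = 0.91 and 0.616). ChREBP is made in forms that begin at different starts, and the upstream start is the one shown above. RSEM counted Mlxipl on 1 transcript, so the forms are not separated here.

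Txnip (chromosome 3, 96557957 to 96561857), whose promoter carries the paired motif shown above, had the largest difference of the 7 genes tested between the lines. In wild-type vehicle libraries it was at 117, 88.0, 99.4 and 92.9 CPM, and in knockout vehicle libraries at 55.2, 56.2, 60.9 and 57.7 CPM. In ivermectin it was at 85.0, 73.4, 63.6 and 69.7 CPM in wild-type and at 57.9, 61.1, 45.7 and 60.8 CPM in knockout libraries. All 8 libraries labelled knockout lay below all 8 wild-type libraries. The level in the knockout line was 0.583 of wild type in vehicle, a log2 difference of -0.78 ± 0.113 (95% interval -1.01 to -0.55, edgeR adjusted p = 2.56e-06), and 0.769 of wild type in ivermectin, a log2 difference of -0.38 ± 0.111 (95% interval -0.60 to -0.15, edgeR adjusted p = 0.00921). The call in vehicle held when each of the 16 libraries was left out in turn, with log2 differences between -0.83 and -0.69. In ivermectin the call was lost without wild-type ivermectin replicate 1 (-0.28, edgeR adjusted p = 0.0824) and without knockout ivermectin replicate 3 (-0.29, edgeR adjusted p = 0.0538).

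In the wild-type line, the 4 ivermectin libraries lay below the 4 vehicle libraries for Txnip, from 63.6 to 85.0 CPM against 88.0 to 117 CPM. Groups without overlap in this direction were found for 1.94% of all genes tested in this comparison. The log2 difference was -0.42 ± 0.111 (95% interval -0.65 to -0.20), with an unadjusted p of 0.000517 and an edgeR adjusted p of 0.0787, so Txnip was not called. It passed without the low-count filter (edgeR adjusted p = 0.031) and without replicate 2 of wild-type vehicle, replicate 1 of wild-type ivermectin or replicate 3 of knockout ivermectin (edgeR adjusted p = 0.044, 0.0117 and 0.0424), but not with DESeq2 (adjusted p = 0.294). In the knockout line the log2 difference was -0.02 ± 0.113 (95% interval -0.25 to 0.20, edgeR adjusted p = 0.978), and the groups overlapped. The difference between these responses was 0.40 ± 0.158, with an unadjusted p of 0.0163, and was not called (edgeR adjusted p = 0.874). A different response of Txnip to ivermectin in the 2 lines was therefore not shown.

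Alb, like Txnip, was highest in the wild-type vehicle group. It averaged 579 CPM with vehicle and 101 CPM with ivermectin in the wild-type line, against 38.9 and 68.2 CPM in the knockout line, where it was not called for ivermectin (0.86 ± 0.420 on the log2 scale, edgeR adjusted p = 0.654). In a fit with the Alb level as a further term, the Txnip difference in vehicle was -0.59 (edgeR adjusted p = 0.187), that of G6pc2 0.22 (0.30) and that of Mlxipl -0.32 (0.357), so none of the 3 calls was kept. Alb in vehicle was at 328 to 923 CPM in wild-type and at 17.1 to 52.3 CPM in knockout libraries, without overlap. There this fit can hardly separate the line from Alb, and calls over all genes fell from 2240 to 403. The G6pc2 and Mlxipl estimates grew while their calls were lost, so a lost call is not read as a vanished difference. In ivermectin, where 1 of 20 hepatocyte markers was lower in the knockout line, the covariate left Txnip at -0.34 (edgeR adjusted p = 0.030), G6pc2 at 0.19 (0.0070) and Mlxipl at -0.25 (0.0257), and all 3 calls were kept. In the wild-type line, the ivermectin difference of Txnip was accompanied by lower levels of 19 of 20 hepatocyte markers, and in the fit that included Alb it was -0.30 (edgeR adjusted p = 1). Alb with ivermectin was at 57.7 to 172 CPM in this line, below all its vehicle libraries, so the same limit of the fit holds there. The part of liver transcripts in these differences was not tested.

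**Figure D3:**
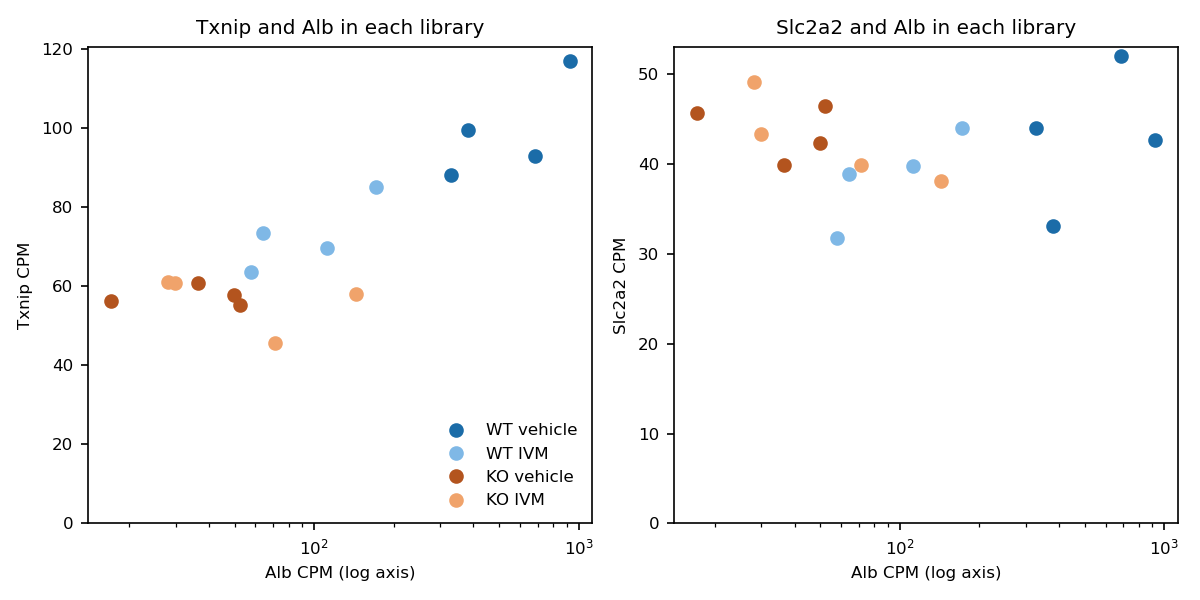
Txnip (left) and Slc2a2 (right) in CPM against Alb in CPM on a log axis, with 1 point per library coloured by group (WT, wild type; KO, labelled knockout; IVM, ivermectin). The wild-type vehicle libraries have the highest Alb and Txnip levels, from 327.7 to 923 CPM of Alb, while Slc2a2 stays between 31.8 and 52.0 CPM in all 16 libraries.

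The annotated gene Gm15441 overlaps Txnip, and whether the counting used the strand is not given in the sources used here, so reads of the pair may be shared. The same limit applies to Slc2a1 (overlapped by Gm12867 and Gm52706), Slc2a2 (1700112D23Rik), Slc2a3 (Gm4482) and Hk1 (Hk1os). Gm15441 was at 8.79 ± 3.73 CPM in wild-type vehicle and 5.88 ± 2.92 CPM in knockout vehicle libraries (SD, n = 4 each), far below Txnip, and was not called (log2 difference -0.58, edgeR adjusted p = 0.282).

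Arrdc4 (chromosome 7, 68736994 to 68749238), the Txnip relative, was not called in any comparison. It was at 14.6, 8.80, 12.8 and 9.29 CPM in wild-type vehicle and at 9.50, 12.1, 11.3 and 7.66 CPM in wild-type ivermectin libraries. The knockout vehicle libraries had 8.13, 10.5, 4.99 and 12.7 CPM, and it was at 11.8, 8.57, 12.4 and 13.6 CPM in knockout ivermectin libraries. All 4 groups overlapped, and a library held only 9 to 24 counts. The log2 difference between the lines was -0.31 ± 0.292 in vehicle, and its 95% interval from -0.90 to 0.29 includes the Txnip estimate of -0.78. The vehicle estimate ran from -0.51 without knockout vehicle replicate 4 to -0.10 without knockout vehicle replicate 3, and was -0.09 after thinning, so its size is uncertain. In ivermectin it was 0.17 ± 0.257 (95% interval -0.35 to 0.69, which does not include the Txnip estimate of -0.38), and neither was called (edgeR adjusted p = 0.502 and 0.661). Ivermectin gave -0.13 ± 0.292 in the wild-type and 0.34 ± 0.256 in the knockout line (edgeR adjusted p = 1 and 0.771), and the latter ran from 0.13 without knockout vehicle replicate 3 to 0.54 without knockout vehicle replicate 4.

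Counted over the 7 tested genes, 3 passed the threshold between the lines in vehicle: G6pc2 was higher and Mlxipl and Txnip were lower. Among all 10820 genes tested, 20.7% were called in this comparison, 9.86% higher and 10.8% lower, and groups without overlap, found for 3 of the 7, were found for 22.1%. In ivermectin the same 3 genes were called in the same directions, against a background of 27.8%, and G6pc2 and Txnip had no overlap against 25.3% of all genes. No gene of the 7 was called for ivermectin in the wild-type line, where 0.601% of all genes were called. Unadjusted p-values there were below the 0.05 level for 2 of the 7, against 5.2% of all genes. In the knockout line edgeR called 0% of all genes, and 1 of the 7 had an unadjusted p below that level, against 7.58%. The interaction was called for none of the 7 and for 0.222% of all genes, with 1 of the 7, Txnip, below the unadjusted level against 5.11%. The median log2 difference over the 7 genes was -0.08 between the lines in vehicle and -0.07 in ivermectin, and -0.13 and -0.03 for ivermectin in the wild-type and the knockout line. Over all genes tested the median lay between -0.00066 and 0.0015 in the 5 comparisons.

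**Figure D4:**
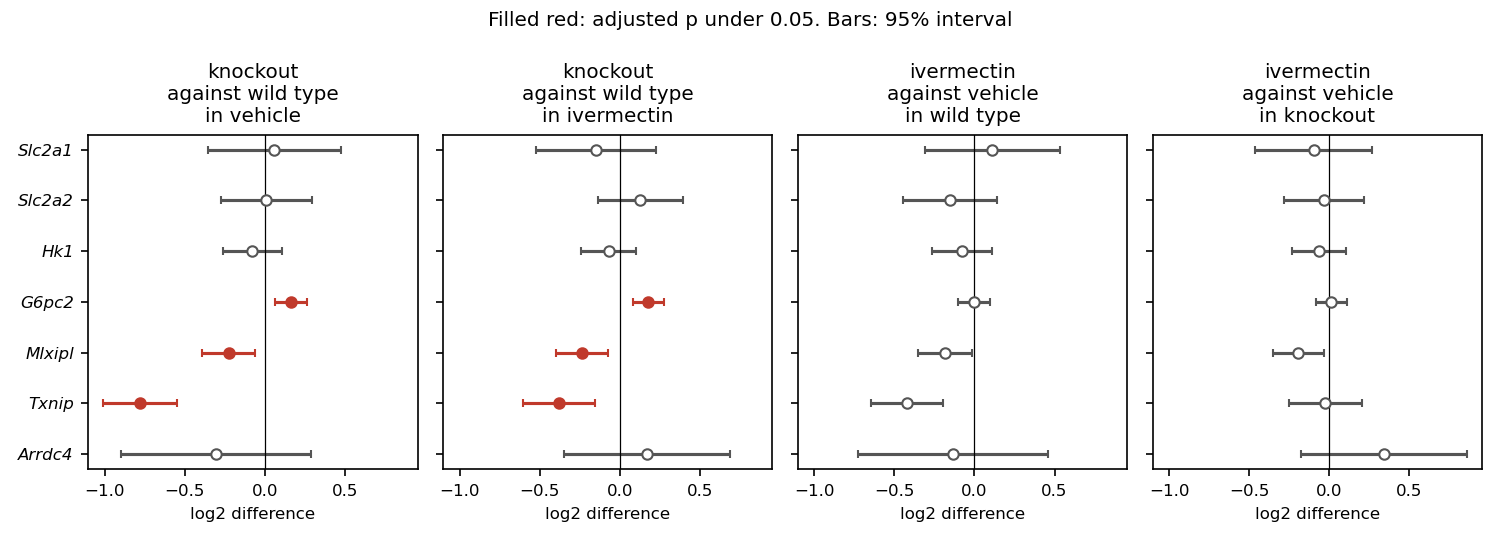
Log2 difference of each of the 7 tested genes in 4 comparisons, with 95% intervals; filled red points passed an edgeR adjusted p of 0.05 and open points did not. G6pc2 lies above 0, and Mlxipl and Txnip lie below 0, in both comparisons of the knockout with the wild-type line, while none passed for ivermectin.

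A list of 43 further genes of glucose uptake, glucose-6-phosphate metabolism and the ChREBP pathway was read from the same fit, and 30 of them were tested. It too was chosen with earlier results of these data known, so its counts are descriptions. Between the lines in vehicle 6 were higher and 4 lower, where 9.86% and 10.8% of all genes were, and in ivermectin 8 were higher and 5 lower, where 13.9% of all genes were in each direction. Both counts of lower genes include the sparsely counted Gpd1, which is given below as a description only. The median log2 difference over the 30 was -0.0058 in vehicle and 0.06 in ivermectin. For ivermectin in the wild-type line 1 was lower and none higher, where 0.545% of all genes were lower. In the knockout line none was called, where 0% of all genes were, and the interaction was called for 1, Scd1, against 0.222% of all genes.

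Of 6 other transporter genes tested, 1 was called between the lines, the same gene under both treatments, against 20.7% of all genes in vehicle and 27.8% in ivermectin. Slc2a5, the gene of the fructose transporter GLUT5, was at 164, 148, 166 and 188 CPM in wild-type vehicle and at 213, 207, 206.1 and 207 CPM in knockout vehicle libraries, and at 178, 175, 161 and 171 CPM in wild-type ivermectin and 213, 202, 203 and 212 CPM in knockout ivermectin libraries. The groups did not overlap under either treatment, and the log2 difference was 0.32 ± 0.0737 in vehicle (edgeR adjusted p = 0.00141) and 0.27 ± 0.0685 in ivermectin (edgeR adjusted p = 0.00264). The vehicle call of Slc2a5 was lost in the fit that included Alb (0.46, edgeR adjusted p = 0.0801). Per length, Slc2a5 was also the most abundant of the 4 transporters compared, with 66.6% ± 1.36 of the summed TPM of Slc2a1, Slc2a2, Slc2a3 and Slc2a5 in wild-type vehicle and 71.7% ± 0.953 in knockout vehicle libraries (SD, n = 4 each).

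Of 3 other tested genes of phosphorylation and glucose-6-phosphate, none was called between the lines in vehicle and 1 in ivermectin, against 20.7% and 27.8% of all genes. G6pc3, the widely expressed glucose-6-phosphatase, was higher in the knockout line in ivermectin (0.37 ± 0.107 on the log2 scale, edgeR adjusted p = 0.00877) and was not called in vehicle. Both ChREBP partners were tested. Mlx, which forms the DNA-binding pair with ChREBP, was at 67.8 ± 6.66 CPM in wild-type vehicle and 84.6 ± 8.47 CPM in knockout vehicle, and at 60.4 ± 6.28 and 78.9 ± 9.49 CPM in the ivermectin groups (SD, n = 4 each). It was higher in the knockout line, with log2 differences of 0.32 ± 0.115 (edgeR adjusted p = 0.0431) and 0.38 ± 0.107 (edgeR adjusted p = 0.0071), opposite in sign to Mlxipl. The vehicle call for Mlx was lost with DESeq2 (adjusted p = 0.121), after thinning (edgeR adjusted p = 0.148), in the fit that included Alb (0.71, edgeR adjusted p = 0.0647), and without wild-type vehicle replicates 1, 2 or 3 or knockout vehicle replicate 4 (edgeR adjusted p from 0.0573 to 0.162). Mlxip, the ChREBP paralogue MondoA, was not called (0.17 ± 0.177 and -0.19 ± 0.159, edgeR adjusted p = 0.531 and 0.387).

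Known ChREBP or glucose-responsive targets went both ways. Of 12 tested, 3 were higher and 3 lower in the knockout line in vehicle, and 5 were higher and 3 lower in ivermectin, against 20.7% and 27.8% of all genes called in either direction. The 3 lower genes under each treatment include Gpd1, which is given below as a description and not as a test result. Among the lipid synthesis genes, the desaturase gene Scd2 was higher under both treatments (0.64 ± 0.0508 and 0.65 ± 0.0501, edgeR adjusted p = 5.08e-12 and 2.27e-12), as was the fatty acid synthase gene Fasn (0.32 ± 0.0784 and 0.23 ± 0.0760, edgeR adjusted p = 0.00298 and 0.0223). The elongase gene Elovl6 was higher in vehicle (0.95 ± 0.159, edgeR adjusted p = 2.32e-05) and was not called in ivermectin, and the ATP-citrate lyase gene Acly was slightly lower under both treatments (-0.17 ± 0.0492 and -0.17 ± 0.0490, edgeR adjusted p = 0.0103 for each). Gpd1, which makes glycerol-3-phosphate, is among the lower genes under both treatments, at 9.39 ± 0.753 CPM in wild-type and 1.28 ± 0.835 CPM in knockout vehicle libraries, and at 5.65 ± 2.83 and 1.42 ± 1.03 CPM in ivermectin (SD, n = 4 each). Both knockout means lie under the limit set by 3 counts, and the 4 libraries of a group summed to 37 and 38 counts in the wild-type and 10 and 9 in the knockout line. It passed the low-count filter through its wild-type level, and in a fit of only the 8 ivermectin libraries it did not pass, so its fitted log2 differences of -2.77 and -2.02 are given as a description. The malic enzyme gene Me1 was lower in ivermectin (-0.39 ± 0.0892, edgeR adjusted p = 0.00112), while Khk, the ketohexokinase gene, and Tkt, the transketolase gene, were higher in ivermectin (0.55 ± 0.196 and 0.27 ± 0.0749, edgeR adjusted p = 0.0338 and 0.00653).

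Several of these target calls depended on the fit. In the fit that included Alb, the vehicle differences of Fasn (0.25, edgeR adjusted p = 0.456), Acly (-0.18, 0.419) and Elovl6 (0.53, 0.379) were no longer called, while Scd2 kept its call under both treatments in every alternative run. The fitted vehicle difference of Gpd1, given as a description, was -1.56 in that fit. In ivermectin, the Khk call was lost with DESeq2 (adjusted p = 0.136), after thinning (0.35, edgeR adjusted p = 0.469), and without replicate 2 or 3 of wild-type ivermectin or 3 or 4 of knockout ivermectin (edgeR adjusted p from 0.0695 to 0.138). That of Fasn was lost after thinning (edgeR adjusted p = 0.0655) and without replicate 3 or 4 of wild-type ivermectin or 1 or 2 of knockout ivermectin (edgeR adjusted p from 0.0613 to 0.126). The Tkt call was lost after thinning (edgeR adjusted p = 0.052). For Acly, the vehicle call was also lost without the low-count filter (edgeR adjusted p = 0.0585), and the ivermectin call after thinning (0.0531) and without wild-type ivermectin replicate 1 (0.0606) or knockout ivermectin replicate 3 (0.0653).

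Scd1, which liver also expresses strongly, was the list's single call for ivermectin in the wild-type line. This further desaturase gene was at 198 ± 65.1 CPM in wild-type vehicle and 72.1 ± 30.7 CPM in wild-type ivermectin libraries (log2 difference -1.40 ± 0.174, edgeR adjusted p = 2.35e-06), and at 129 ± 13.0 and 126 ± 5.11 CPM in the knockout groups (SD, n = 4 each). Relative to wild type, it was lower in the knockout line in vehicle (-0.61 ± 0.158, edgeR adjusted p = 0.0045) and higher in ivermectin (0.75 ± 0.173, edgeR adjusted p = 0.0011). In the fit that included Alb it was not called for ivermectin in the wild-type line (-0.96, edgeR adjusted p = 1), and its vehicle difference between the lines turned positive without a call (0.09). The vehicle call was also lost with DESeq2 (adjusted p = 0.109) and without wild-type vehicle replicate 1 (-0.41, edgeR adjusted p = 0.0628). In ivermectin the call was lost after thinning (0.51, edgeR adjusted p = 0.0716), and the difference was 1.14 without wild-type ivermectin replicate 1 (edgeR adjusted p = 5.79e-07).

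In the arrestin family and the thioredoxin system, 7 genes were tested. In vehicle 1 was higher and 1 lower, against 20.7% of all genes called, and in ivermectin 2 were lower, against 27.8%; groups without overlap were found for 2 of the 7 under each treatment, against 22.1% and 25.3%, so both counts lie near the background. Arrdc3, a paralogue of Txnip and Arrdc4, was at 88.8, 109, 109 and 145 CPM in wild-type vehicle and at 66.8, 64.7, 61.9 and 69.4 CPM in knockout vehicle libraries. In ivermectin it was at 100.5, 94.8, 102 and 103 CPM in wild-type and at 67.0, 68.6, 68.6 and 64.7 CPM in knockout libraries. No knockout library reached the level of any wild-type library. The log2 difference was -0.79 ± 0.106 in vehicle (edgeR adjusted p = 5.98e-07) and -0.57 ± 0.101 in ivermectin (edgeR adjusted p = 4.68e-05), and in a fit that included Alb it was -0.73 in vehicle (edgeR adjusted p = 0.0613). Txnrd1, the cytosolic thioredoxin reductase gene, was higher in the knockout line in vehicle (0.24 ± 0.0677, edgeR adjusted p = 0.00839), and Txnrd2, its mitochondrial counterpart, was lower in ivermectin (-0.58 ± 0.191, edgeR adjusted p = 0.0216). The Txnrd1 call was lost in the fit that included Alb, where the estimate was 0.29 (edgeR adjusted p = 0.289). The Txnrd2 call was lost in that fit (edgeR adjusted p = 0.0888), with DESeq2 (adjusted p = 0.0946), after thinning (edgeR adjusted p = 0.222), and without replicate 1 of wild-type ivermectin or of knockout ivermectin (edgeR adjusted p = 0.0825 and 0.0701). Txn1 and Txn2, the thioredoxin genes themselves, were not called.

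**Figure D5:**
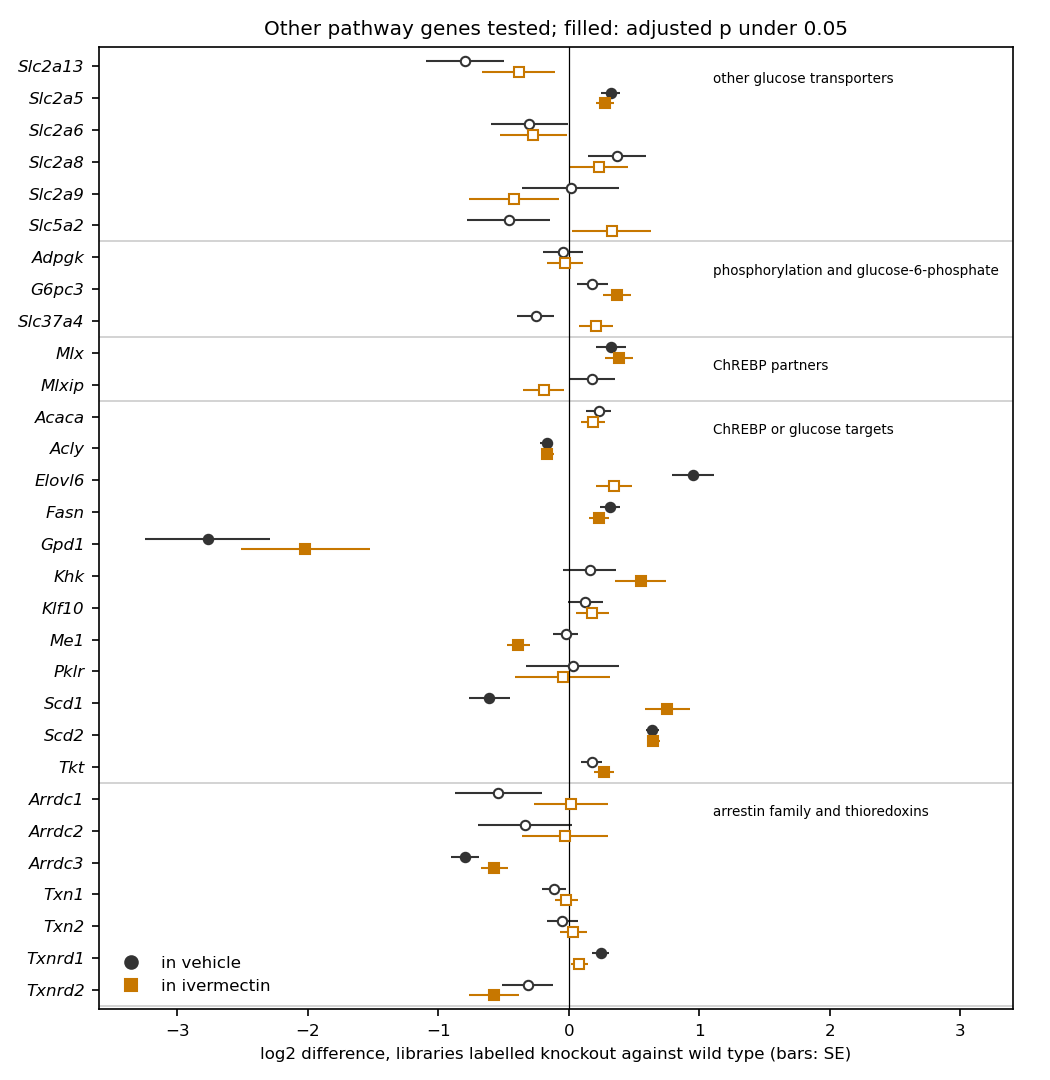
Log2 difference of the 30 other pathway genes tested, libraries labelled knockout against wild type, in vehicle (grey circles) and in ivermectin (orange squares), with SE bars and grouped by list; filled symbols passed an edgeR adjusted p of 0.05. Arrdc3 and the sparsely counted Gpd1 lie below 0 and Slc2a5, Mlx, Fasn and Scd2 above 0 under both treatments, whereas Scd1 lies below 0 in vehicle (above 0, at 0.09, in the fit that included Alb) and above 0 in ivermectin.

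The genes most alike in pattern were sought among 8738 tested genes whose log2 CPM averaged 4 or more, by the root mean square difference of centred log2 levels over the 16 libraries. For Txnip the nearest were Sh3kbp1 (0.159), Ranbp9 (0.163) and Zfp9 (0.171), against a median of 0.403 over all those genes. Sh3kbp1 averaged 82.0 CPM with vehicle and 68.0 CPM with ivermectin in the wild-type line, and 52.1 and 51.7 CPM in the knockout line. For Mlxipl they were Gng4 (0.0958), Celf1 (0.0994) and Whsc1 (0.103), with a median of 0.265, and for Slc2a2 they were Dpf2 (0.103), Xpnpep1 (0.109) and Vps52 (0.130), with a median of 0.265. For Arrdc4, whose low counts add noise of their own, the nearest were Otud3 (0.233), Yrdc (0.26) and Rfc3 (0.261), with a median of 0.390. The libraries share their groups and their depth, so likeness here is a description and carries no test.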

How the data were processed

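Per the submitters' processing notes, bcl2fastq, STAR 2.7.2b, RSEM 1.3.3 and DESeq2 1.32.0 were used with build mm10; per the labels' protocols, libraries were made from 125 ng of RNA by poly(A) selection with a strand-keeping kit and 11 cycles, and read for 42 nucleotides from both ends. The authors deposited a table of raw counts, each equal to the RSEM expected count rounded down (373264 of 373264 values), and per-library RSEM files with expected counts, TPM and transcript lengths, per the file headers. Coordinates and promoters come from RefSeq on GRCm38.p6, the assembly of mm10.

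The raw counts were analysed with edgeR 4.0.16 (limma 3.58.1, R 4.3.3): filterByExpr defaults (minimum count 10, minimum total 15), TMM factors, 1 mean per group over 16 libraries, the quasi-likelihood F test, and Benjamini-Hochberg adjustment over 10820 genes with a threshold of 0.05. Standard errors come from the log2 fold change and its F statistic. CPM values are TMM-scaled and compare libraries, and TPM compares genes. Replicate pairs differed by more than counting noise (chi-squared per degree of freedom 1.16 to 6.81). The test was checked on simulated data. Pathway and marker lists, like the 9 genes, were chosen with earlier results of these data known. Named were the 9 genes, P2ry1, Alb, pathway genes past the threshold, Mlx and Mlxip, and the 3 genes most alike to Txnip, Arrdc4, Slc2a2 and Mlxipl; Gm15441, Txn1 and Txn2 were named after their values were seen. Alternatives were DESeq2 1.42.0, relative log expression factors, no filter, genes averaging 50 or more counts, a fit of the 8 libraries compared alone, a replicate block, rounded expected counts, thinning to the smallest total (a single random draw), Alb as a covariate, and leaving out each library. Human islet files were not used, and some genes of the pathway lists are not reported here.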

Additional observations from a re-analysis of the deposited data

Results flagged for a closer look

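Hk1 in knockout ivermectin replicate 3 was at 76.4 CPM, apart from the other 3 libraries of its group at 81.5 to 82.2 CPM, a gap that took up 0.883 of the group's range. Over 48 groups of values examined 1 stood apart in this way, and chance gives about 2.4.

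The ivermectin difference of Scd1 was not the same in the 2 lines: the interaction of genotype and treatment was 1.36 ± 0.234 on the log2 scale (edgeR adjusted p = 0.00222). Scd1 was lower with ivermectin in the wild-type line in all 4 libraries than in any of the 4 vehicle libraries. With Alb as a covariate the interaction was 0.80 (edgeR adjusted p = 1), with DESeq2 it was 1.41 (adjusted p = 0.0867), and after thinning 1.12 (edgeR adjusted p = 0.0569).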

How the results depend on the processing

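Of 2021 values recomputed, 1856 kept their direction and their side of the threshold or stayed within 1.5 times the reported count, 68 lost a call, 4 gained one, 60 changed sign and 33 counts moved further; the cause was not tested. For ivermectin in the wild-type line, 65 genes were called, and 140 without the filter, 7 at a mean of at least 50 counts and 1 with Alb as a covariate (55 to 100 with 1 library left out). Of the 7 genes tested, 1 was called there without the filter (0 to 1 with 1 library left out), and of the pathway list 2 without the filter and 0 with Alb, against 1. In the knockout line, edgeR called 0 genes, with 820 at an unadjusted p below the threshold, and 23 without the filter. Between the lines in vehicle, 2240 genes were called, 1251 after thinning and 403 with Alb (1837 to 2343 with 1 library left out). The 3 calls among the 7 genes became 1 after thinning and 0 with Alb (1 to 3 with 1 library left out), and the 10 of the pathway list became 1 with Alb (8 to 11). In ivermectin, 3008 genes were called and 1410 after thinning (2432 to 3080). The 3 calls among the 7 genes became 1 after thinning (1 to 3), and the 13 of the pathway list became 6 (11 to 14). The interaction called 24 genes, 82 without the filter, 4 at a mean of 50 counts, 12 after thinning and 0 with Alb (8 to 48). In the pathway list it called 1, and 0 with DESeq2, 2 without the filter, 0 after thinning and 0 with Alb.

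With a replicate block the interaction called 47 genes, and no other count of calls moved by over 1.5 times. Whether the replicate numbers pair libraries is not settled. Correlations of same-numbered libraries were weak, from -0.0566 to 0.145, with 2 of 24 over 0.1. Yet 9 of 16 libraries correlated best with their own number, a larger share than that of same-numbered libraries among those searched, so some pairing is possible.

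Values that changed sign were never called under the alternative. After thinning, Slc2a1 was -0.16 for ivermectin in the wild-type line, 0.39 in the knockout line, -0.40 between the lines in vehicle, 0.15 in ivermectin and 0.55 for the interaction. Thinning also gave Slc2a2 0.062 and G6pc2 -0.043 for ivermectin in the knockout line, P2ry1 -0.046 there, Slc2a2 -0.040 between the lines in vehicle, Mlxip 0.053 in ivermectin, and interactions of -0.12 for Hk1, -0.018 for G6pc2 and 0.024 for Mlxipl. With Alb, G6pc2 was 0.030 for ivermectin in the wild-type line, and between the lines in vehicle Slc2a2 was -0.019, Scd1 0.094 and Mlxip -0.13; interactions were -0.026 for G6pc2 and 0.064 for Mlxipl. Slc2a2 in vehicle was -0.0048 at a mean of 50 counts. Without the filter, G6pc2 for ivermectin in the wild-type line was 0.0055, and interactions were -0.0090 for Hk1 and -0.0021 for G6pc2.

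With 1 library left out, sign changes were as follows. For ivermectin in the wild-type line, Slc2a1 ran from -0.024 to 0.25, G6pc2 from -0.031 to 0.025, Arrdc4 from -0.24 to 0.0023 and P2ry1 from -0.082 to 0.028. In the knockout line, Slc2a1 ran from -0.18 to 0.068, Slc2a2 from -0.11 to 0.023, Txnip from -0.066 to 0.057 and P2ry1 from -0.039 to 0.094. Between the lines, Slc2a1 ran from -0.071 to 0.21 in vehicle and from -0.23 to 0.022 in ivermectin, and Slc2a2 from -0.089 to 0.12 in vehicle. Interactions ran from -0.030 to 0.030 for Hk1, -0.013 to 0.044 for G6pc2, -0.072 to 0.045 for Mlxipl and -0.0060 to 0.13 for P2ry1. Depth limits Slc2a3, Hk2 and Arrdc4 most, since a library held at most 24 counts of each.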
